A study of Rattus norvegicus with 16 samples.

Results

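10 enzymes of muscle glycogen use and glycolysis were followed across an eye muscle and a leg muscle of the rat, in muscle fibre away from the nerve and at the neuromuscular junction. The members are the genes Pygm, Phka1, Gbe1, Gys1, Pgm1, Fbp2, Pgam2, Gpd1, Eno3 and Ldha, taken by symbol from the annotation of the array. They are 10 of the 10416 genes tested and hold 15 of the 31099 probe sets on the array, and all 10 passed the filter on low values.

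RNA was taken by laser capture from rectus extraocular muscle (EOM), which moves the eye, and from tibialis anterior (TA), a leg muscle that lifts the foot. In each muscle, regions at the junction (EOM synapse, TA synapse) and regions outside it (EOM fibre, TA fibre) were captured, amplified over a pair of cycles and put on Affymetrix arrays. The 16 arrays fall into 4 groups of 4, and the titles repeat the numbers 15, 25, 27 and 29 in each group, which are read here as 4 rats although the labels do not say what they stand for. No group carries a treatment, transgene or deletion in the labels, and strain, sex and age are not given in the sources used here, nor is how the regions were chosen within a section. If the numbers are not separate animals, the p-values measure only the spread between these captures.

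Muscle stores glucose as glycogen, and glycogen phosphorylase, switched on by phosphorylase kinase, releases it as glucose phosphate. Glycolysis turns that sugar into pyruvate and, where it runs faster than the mitochondria, into lactate, and a side branch makes glycerol phosphate. Fast fibres of limb muscle are known for high glycolytic enzyme content, and eye muscle for fibre types not found in limb muscle and for working almost without rest.

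Levels are log2(intensity + 16) after quantile normalization, which gives every array the same distribution of values. A difference is between group means on that scale, which understates the change of dim genes, and its test is limma's with the rat as a block and Benjamini-Hochberg adjustment over all 10416 genes (n = 4 per group). A gene is called where the adjusted p is under 0.05. Captured regions are small bulk samples, so fewer cells of a type and less RNA per cell cannot be told apart in any value below.

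At the junction most of these enzymes were lower in eye muscle than in leg muscle, outside it 5 of 10 were, and in both the glycogen branching enzyme Gbe1 was higher. Outside the junction 5 of 10 members were called lower in EOM than in TA, against 7.15% of all genes, and 1 was called higher, against 8.4%. At the junction 7 of 10 were called lower in EOM, against 8.61% of all genes, and 1 higher, against 7.82%. Between junction and fibre, 6 of 10 were called lower at the EOM junction, where 4.51% of all genes were, and 2 of 10 at the TA junction, where 3.53% were. No member was called higher at either junction than in fibre, nor was any higher at an unadjusted p under 0.05 by limma, the tool used throughout. Of all 10416 genes, 585 were called higher at the EOM junction and 698 at the TA junction. The muscle comparisons and the junction comparisons use the same arrays and are not independent of each other. The members and all gene lists below were chosen with earlier results of these data known. Their counts beside the all-gene shares are therefore a description and not a test.

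The median difference of the 10 members was -0.47 between EOM and TA fibre, -0.95 between the junctions, -0.82 from fibre to junction in EOM and -0.32 from fibre to junction in TA. The corresponding medians over all genes were 0.03, 0.01, -0.04 and -0.01. The fibre count of 6 called members fell to 3 (Gbe1 higher, Phka1 and Fbp2 lower) in a fit without the rat as a block, and to 1 higher and 2 lower also with no filter or with only the arrays compared, and ranged from 3 to 6 when 1 array or 1 rat was left out.

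**Figure D1:**
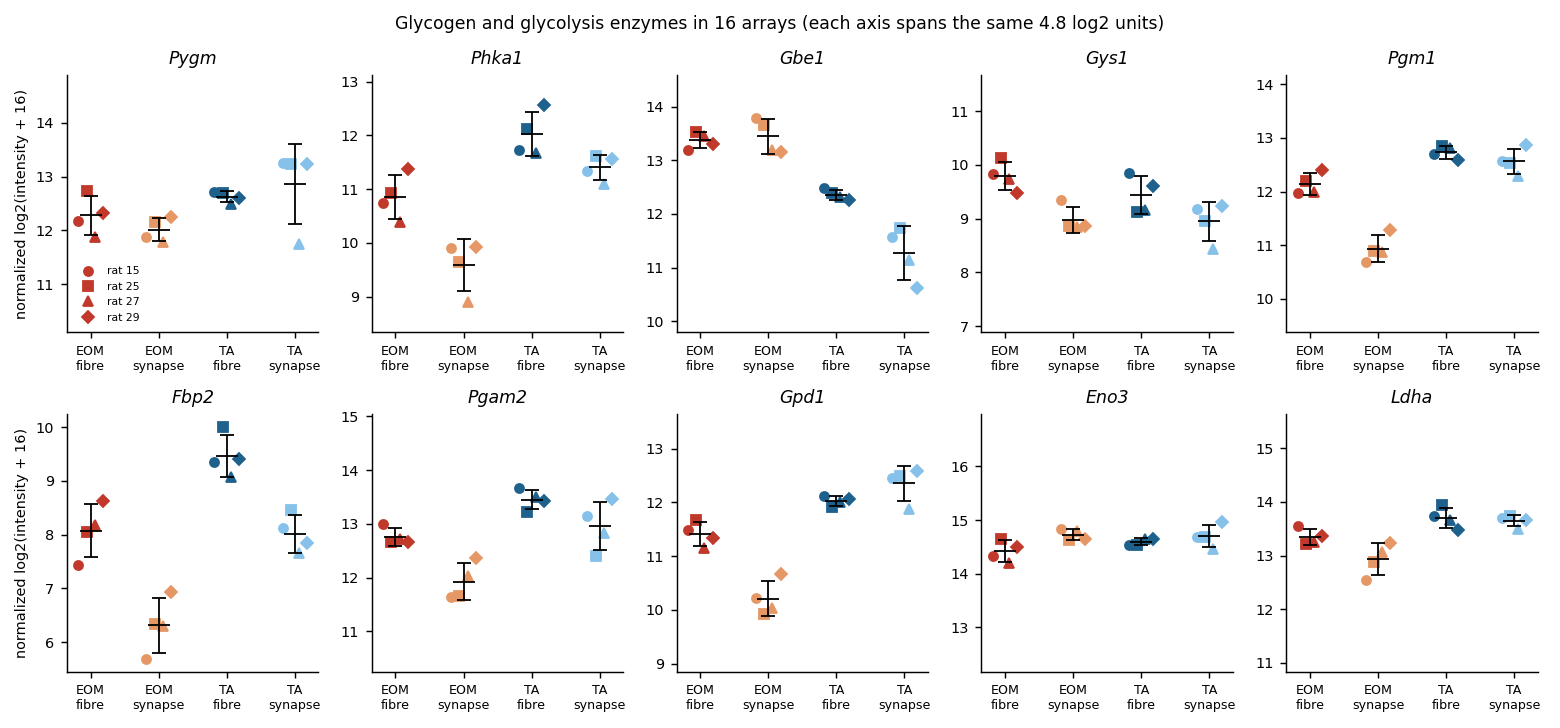
Normalized log2(intensity + 16) of the 10 enzymes on each of the 16 arrays, by group, with the symbol giving the rat and the bars the group mean and SD (n = 4). Gbe1 is highest on the 8 EOM arrays, whereas Phka1, Pgm1, Fbp2 and Gpd1 have their lowest values at the EOM junction.

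Promoter sequence is shown for 4 members that differed between the muscles in both comparisons, Gbe1 upward and Phka1, Pgm1 and Pgam2 downward. Each is the stretch of 250 bases before the RefSeq transcription start in assembly GRCr8, written 5′ to 3′ on the strand of the gene, with motif matches in capitals. The capitals mark the E-box CANNTG, which binds myogenic factors such as MyoD, and the hypoxia response core ACGTG.

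Gbe1, chr11:22181026-22181275 (+): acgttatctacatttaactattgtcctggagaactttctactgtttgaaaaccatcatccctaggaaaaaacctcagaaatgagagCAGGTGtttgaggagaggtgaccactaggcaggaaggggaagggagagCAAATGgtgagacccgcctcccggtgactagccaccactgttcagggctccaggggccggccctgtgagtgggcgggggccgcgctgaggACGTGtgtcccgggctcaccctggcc

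Phka1, chrX:71778122-71778371 (-): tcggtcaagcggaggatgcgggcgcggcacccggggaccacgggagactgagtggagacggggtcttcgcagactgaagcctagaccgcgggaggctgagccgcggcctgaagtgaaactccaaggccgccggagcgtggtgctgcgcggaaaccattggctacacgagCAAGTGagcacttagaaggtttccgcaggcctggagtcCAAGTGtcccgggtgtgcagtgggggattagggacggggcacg

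Pgm1, chr5:119710484-119710733 (+): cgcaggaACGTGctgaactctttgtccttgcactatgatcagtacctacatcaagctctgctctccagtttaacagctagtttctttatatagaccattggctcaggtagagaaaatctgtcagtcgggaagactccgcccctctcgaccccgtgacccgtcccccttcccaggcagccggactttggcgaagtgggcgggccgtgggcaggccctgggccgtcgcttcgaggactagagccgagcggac

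Pgam2, chr14:84897875-84898124 (-): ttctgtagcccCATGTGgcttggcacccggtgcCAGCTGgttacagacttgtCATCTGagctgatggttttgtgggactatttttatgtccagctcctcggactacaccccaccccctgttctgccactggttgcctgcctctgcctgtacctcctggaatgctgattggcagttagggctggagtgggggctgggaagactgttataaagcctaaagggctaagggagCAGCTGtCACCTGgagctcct

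Sequences were found for 8 of the 10 members, all but Fbp2 and Gpd1. An E-box stood in 7 of these 8, against 65.5% of the 33469 promoters in the table, and Pgam2 held 5 of them, Gbe1 and Phka1 2 each and Pgm1 none (0). The hypoxia core stood in 4 of 8 (Pygm, Gbe1, Pgm1 and Ldha), against 16.6% of all promoters, and in Ldha 2 of its matches, 1 on each strand, lie inside an E-box, CACGTG. Searches of both strands for the MEF2 motif, the N-box CCGGAA and the ERR motif TNAAGGTCA gave 0 of 8, 0 of 8 and 0 of 8, with shares of 3.41%, 12.6% and 1.04% over all promoters. The E-box and the hypoxia core were thus found both in the member that was higher in EOM and in members that were lower, and a match describes these letters only.

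Pygm encodes muscle glycogen phosphorylase, which cuts glucose units from glycogen. In rats 15, 25, 27 and 29 its level was 12.17, 12.74, 11.89 and 12.32 in EOM fibre and 12.71, 12.70, 12.49 and 12.61 in TA fibre. It was 11.87, 12.15, 11.79 and 12.25 at the EOM junction and 13.25, 13.24, 11.75 and 13.23 at the TA junction. The TA junction of rat 27 lay below every other TA array, at the level of the EOM junction, so the junction groups overlapped.

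The Pygm difference between the junctions was -0.85 ± 0.24 (SE; adjusted p = 0.0262), negative in 3 of 4 rats, and between the fibre groups it was -0.35 ± 0.24 (adjusted p = 0.367). From fibre to junction it was -0.26 ± 0.24 in EOM (adjusted p = 0.544) and 0.24 ± 0.24 in TA (adjusted p = 0.609). Without the rat as a block the junction value between the muscles missed the threshold (adjusted p = 0.0644). Leaving out the TA junction array of rat 27 moved it to -1.15 (adjusted p = 0.00216), while leaving out any other TA junction array, or the EOM junction array of rat 15, 25 or 29, ended the call (adjusted p 0.054 to 0.0934). Of the other 2 Pygm probe sets, 1 was lower at the EOM than the TA junction by the same test over probe sets (-1.13, adjusted p = 0.0205). The other gave -0.33 (adjusted p = 0.616). From fibre to junction within EOM they gave 0.32 and 0.60 (adjusted p = 0.578 and 0.367), the opposite sign to the probe set used. Within TA they gave 0.70 and 0.50, the same sign as that probe set.

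Phka1 encodes the muscle alpha subunit of phosphorylase kinase, the regulatory part of the enzyme that activates phosphorylase. Its level in the 4 rats was 10.74, 10.92, 10.40 and 11.37 in EOM fibre and 11.73, 12.12, 11.68 and 12.57 in TA fibre. At the junctions it was 9.90, 9.64, 8.90 and 9.93 in EOM and 11.34, 11.62, 11.10 and 11.56 in TA. The 4 EOM junction arrays were the lowest of the 16, and neither pair of muscle groups overlapped.

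Phka1 was lower in EOM by -1.17 ± 0.19 in fibre (adjusted p = 0.00103, 2.25-fold) and by -1.81 ± 0.19 at the junction (adjusted p = 3.04e-05, 3.51-fold), with the same sign in 4 of 4 rats each time. Within EOM it was lower at the junction than in fibre by -1.26 ± 0.19 (adjusted p = 0.000875). Within TA the difference was -0.62 ± 0.19 (adjusted p = 0.0553). The test of whether the junction difference itself differed between the muscles gave -0.65 ± 0.27 (adjusted p = 0.387). A dimmer second probe set of Phka1 gave -0.93 and -0.99 in the muscle comparisons (adjusted p = 0.0968 and 0.0776 over probe sets).

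Gbe1 encodes the glycogen branching enzyme, which adds the side chains that make glycogen compact and soluble. Its level was 13.20, 13.53, 13.46 and 13.30 in EOM fibre and 12.48, 12.39, 12.31 and 12.25 in TA fibre. At the junctions it was 13.78, 13.66, 13.18 and 13.16 in EOM and 11.58, 11.75, 11.15 and 10.61 in TA. All 8 EOM arrays lay above all 8 TA arrays, and the TA junction arrays lay below the TA fibre arrays.

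Gbe1 was higher in EOM by 1.01 ± 0.20 in fibre (adjusted p = 0.00435, 2.02-fold) and by 2.17 ± 0.20 at the junction (adjusted p = 1.12e-05, 4.51-fold), in 4 of 4 rats each time. Within TA, junction levels were below fibre levels by -1.09 ± 0.20 (adjusted p = 0.00366), while within EOM the difference was 0.07 ± 0.20 (adjusted p = 0.866). The difference between those junction differences was 1.16 ± 0.29 and did not pass the threshold (adjusted p = 0.0911). With arrays centred on a common median the fibre difference was 0.66 (adjusted p = 0.126).

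Gys1 encodes the glycogen synthase of muscle, which lengthens the chains that Gbe1 branches. Its level ran from 9.49 to 10.13 in EOM fibre, 9.12 to 9.85 in TA fibre, 8.84 to 9.35 at the EOM junction and 8.44 to 9.23 at the TA junction. The muscles overlapped in both kinds of region, with differences of 0.36 ± 0.21 in fibre (adjusted p = 0.288) and 0.03 ± 0.21 at the junction (adjusted p = 0.952).

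Gys1 was lower at the EOM junction than in EOM fibre by -0.81 ± 0.21 (adjusted p = 0.0266), in 4 of 4 rats and with no overlap. This call was lost when any 1 of the 4 EOM junction arrays, or the EOM fibre array of rat 25 or 27, was left out (adjusted p 0.0537 to 0.0877). Within TA the difference was -0.48 ± 0.21 (adjusted p = 0.188). The ratio of Gbe1 to Gys1 within an array, taken on the deposited values as log2(intensity + 16), exceeded its TA value at the EOM junction by 1.74 ± 0.64 (SD, log2) in 4 of 4 rats, and by 2.15 ± 0.54 on the quantile-normalized levels. An exact sign-flip test over 4 rats cannot go below its p of 0.125, the value found here.

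Pgm1 encodes phosphoglucomutase, which links glycogen to glycolysis by moving the phosphate on glucose. Its level was 11.98, 12.20, 11.98 and 12.41 in EOM fibre and 12.69, 12.84, 12.81 and 12.58 in TA fibre. At the junctions it was 10.69, 10.89, 10.88 and 11.29 in EOM and 12.57, 12.53, 12.30 and 12.87 in TA. The EOM junction stood below the other 3 groups on every array, and the TA groups overlapped.

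The Pgm1 difference between the junctions was -1.63 ± 0.18 (adjusted p = 4.11e-05, 3.09-fold lower in EOM), and from fibre to junction within EOM it was -1.21 ± 0.18 (adjusted p = 0.000807). Within TA it was -0.17 ± 0.18 (adjusted p = 0.64), and the difference between the muscles in this step was -1.04 ± 0.25 (adjusted p = 0.0819). The fibre difference of -0.59 ± 0.18 was near the threshold (adjusted p = 0.0395) and was lost without the rat block (adjusted p = 0.0536). Leaving out 1 array ended it in 11 of 16 cases. The second Pgm1 probe set was lower at the EOM junction in both comparisons too (-1.09 and -0.99, adjusted p = 0.0194 and 0.0452 over probe sets).

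Fbp2 encodes the muscle form of fructose bisphosphatase, which runs the committed step of glycolysis backwards in the building of glycogen from lactate. Its level was 7.43, 8.05, 8.17 and 8.63 in EOM fibre and 9.34, 10.01, 9.08 and 9.41 in TA fibre. At the junctions it was 5.69, 6.33, 6.29 and 6.94 in EOM and 8.12, 8.45, 7.65 and 7.84 in TA. It was the dimmest member, with an EOM junction array as low as percentile 45 of the probe sets on its array, and no 2 groups of the same kind of region overlapped between the muscles.

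Fbp2 was the member called in all 4 comparisons of 2 groups. It was lower in EOM by -1.39 ± 0.27 in fibre (adjusted p = 0.00332) and by -1.71 ± 0.27 at the junction (adjusted p = 0.000721). It was lower at the junction than in fibre by -1.76 ± 0.27 in EOM (adjusted p = 0.000965) and by -1.44 ± 0.27 in TA (adjusted p = 0.00332). All 4 differences had the same sign in 4 of 4 rats, and the step from fibre to junction differed between the muscles by -0.32 ± 0.38 (adjusted p = 0.834, 95% interval -1.13 to 0.50).

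Pgam2 encodes the muscle form of phosphoglycerate mutase, a step of lower glycolysis. Its level ran from 12.66 to 13.00 in EOM fibre, 13.23 to 13.66 in TA fibre, 11.64 to 12.37 at the EOM junction and 12.41 to 13.46 at the TA junction. The EOM arrays were lower than the TA arrays in both kinds of region with no overlap, by -0.70 ± 0.21 in fibre (adjusted p = 0.0388) and -1.04 ± 0.21 at the junction (adjusted p = 0.00413).

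From fibre to junction Pgam2 was lower by -0.83 ± 0.21 in EOM (adjusted p = 0.0228), and the value in TA was -0.49 ± 0.21 (adjusted p = 0.175). The fibre difference between the muscles missed the threshold without the rat block (adjusted p = 0.06) and when 1 of 8 of the 16 arrays was left out. The EOM junction call was lost without the EOM fibre or junction array of rat 15 or 25 (adjusted p 0.0593 to 0.0912).

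Eno3 encodes the muscle enolase, the next step after the mutase, and its probe set was among the brightest on every array, at about percentile 99.9. Quantile normalization sets the level of so bright a probe set by its rank, so its narrow range, 14.20 to 14.96 on all 16 arrays, is built in. The deposited intensities ran from 17975 to 39498, with means of 22163 in EOM fibre, 32806 in TA fibre, 20316 at the EOM junction and 26147 at the TA junction. The normalized differences were -0.17 ± 0.17 between the fibre groups (adjusted p = 0.556), 0.03 ± 0.17 between the junctions (adjusted p = 0.937), 0.30 ± 0.17 within EOM (adjusted p = 0.302) and 0.10 ± 0.17 within TA (adjusted p = 0.789). As deposited they were -0.57, -0.37, -0.11 and -0.32 (adjusted p = 0.0587, 0.227, 0.779 and 0.357), so the values between the junctions and within each muscle had the other sign.

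Gpd1 encodes the cytosolic glycerol phosphate dehydrogenase, which makes glycerol phosphate from a glycolytic intermediate and passes reducing power towards mitochondria. Its level was 11.49, 11.67, 11.15 and 11.34 in EOM fibre and 12.11, 11.91, 12.01 and 12.07 in TA fibre. At the junctions it was 10.22, 9.91, 10.04 and 10.68 in EOM and 12.45, 12.50, 11.88 and 12.59 in TA. The EOM junction arrays were the 4 lowest, and no EOM array reached a TA array.

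Gpd1 differed most between the junctions among the members that were lower in EOM, by -2.14 ± 0.20 (adjusted p = 9.1e-06, 4.41-fold). Within EOM it was lower at the junction by -1.20 ± 0.20 (adjusted p = 0.00161), and within TA the value was 0.33 ± 0.20 (adjusted p = 0.354). The test of the difference between these steps gave -1.53 ± 0.28 (adjusted p = 0.0185) in 4 of 4 rats, and it was the 1 call among 10 members in a comparison that called 0.922% of all genes. Beside Gpd1, Gbe1, Pgm1, Phka1 and Fbp2, the other members gave -0.50 (Pygm), -0.33 (Gys1), -0.34 (Pgam2), 0.20 (Eno3) and -0.36 (Ldha), with adjusted p from 0.647 to 0.839. The call of Gpd1 was lost when any 1 of the 4 rats was left out (adjusted p 0.0664 to 0.171). It was also lost without the TA junction array of rat 15 (adjusted p = 0.0516) or rat 29 (adjusted p = 0.0508). Arrays centred on a common median gave -1.12 (adjusted p = 0.344), and those centred on pan-fibre genes, a scaling described below, -0.91 (adjusted p = 0.231). Its adjusted p ran from 0.000688 to 0.658 over the alternatives.

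The fibre difference of Gpd1, -0.61 ± 0.20, lay at the threshold (adjusted p = 0.0499) and was lost without the rat block (adjusted p = 0.0688). Leaving out 1 array ended it in 12 of 16 cases. A second Gpd1 probe set, at a mean level of 6.17 against 11.50 for the one used, gave -0.58 between the junctions and -0.09 within EOM (adjusted p = 0.576 and 0.954 over probe sets), and averaging both ended the calls within EOM and for the difference between muscles.

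Ldha encodes the A subunit of lactate dehydrogenase, which turns pyruvate into lactate. Its level ran from 13.21 to 13.55 in EOM fibre, 13.47 to 13.93 in TA fibre, 12.54 to 13.24 at the EOM junction and 13.50 to 13.73 at the TA junction. The junction groups did not overlap and differed by -0.72 ± 0.20 (adjusted p = 0.0233), while the fibre groups overlapped and gave -0.36 ± 0.20 (adjusted p = 0.252). The junction call was lost without the EOM junction array of rat 15 or 25 or the TA junction array of rat 15, 25 or 29 (adjusted p 0.0569 to 0.0834). From fibre to junction the values were -0.41 ± 0.20 in EOM (adjusted p = 0.21) and -0.05 ± 0.20 in TA (adjusted p = 0.913).

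**Figure D2:**
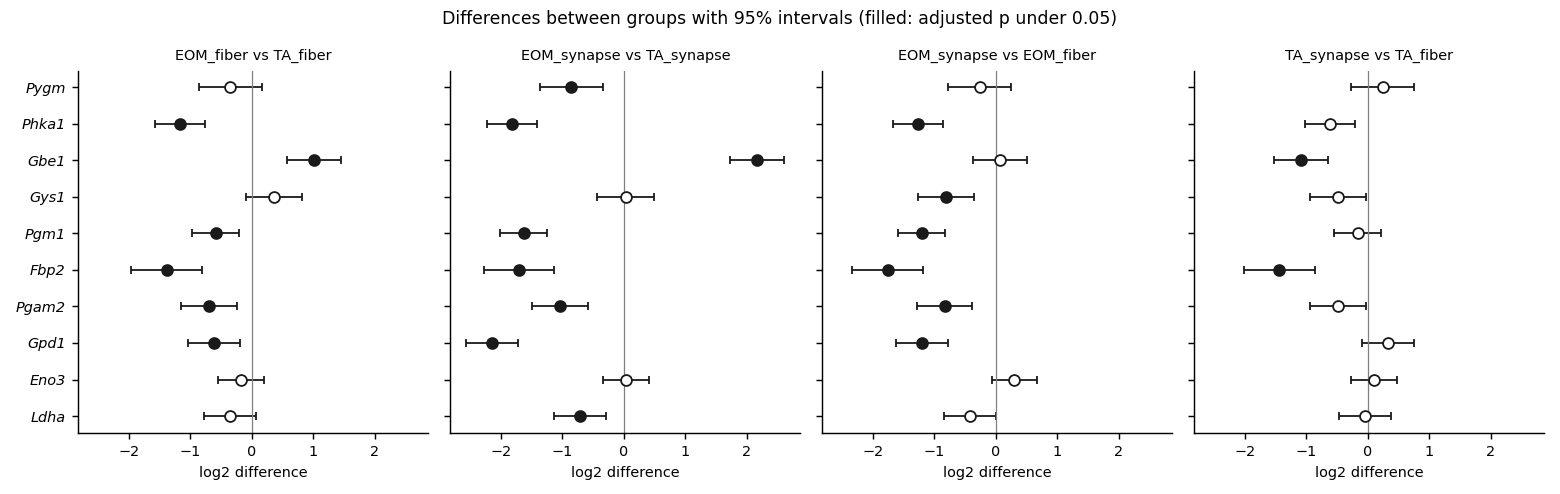
Log2 difference of each enzyme in the 4 comparisons of 2 groups, with 95% intervals from the limma fit (n = 4 per group) and filled circles for an adjusted p under 0.05. Gbe1 lies to the right in both muscle comparisons, at 1.01 and 2.17, and Fbp2 lies to the left in all 4 comparisons.

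Groups without overlap were counted for the 10 members as a description. Outside the junction 6 members separated EOM from TA, against 16.4% of all genes tested, and at the junction 7 did, against 22.8%. Between junction and fibre 6 did in EOM, against 17.1%, and 3 in TA, against 13.2%. Phka1, Pgm1, Fbp2, Pgam2 and Gpd1 are the members with lower values in EOM and no overlap in both muscle comparisons, and Gbe1 is the member with higher values in both.

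Several members have a partner gene that encodes the same activity in other tissues or fibres, and for 3 of them, Eno1, Pgam1 and Ldhb, the partner was higher in EOM in both kinds of region. Eno1, the widely expressed enolase, was higher in EOM by 2.24 ± 0.21 in fibre (adjusted p = 2.24e-05) and by 2.00 ± 0.21 at the junction (adjusted p = 3.04e-05). Pgam1, the widely expressed mutase, was higher by 1.46 ± 0.22 (adjusted p = 0.000532) and by 1.45 ± 0.22 (adjusted p = 0.000501). Ldhb, the lactate dehydrogenase subunit typical of heart, was higher by 1.84 ± 0.31 (adjusted p = 0.00117) and by 3.14 ± 0.31 (adjusted p = 1.6e-05).

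The level of Eno1 ran from 10.88 to 11.11 in EOM fibre and 8.41 to 9.09 in TA fibre, and from 10.28 to 10.59 and 7.94 to 9.04 at the respective junctions. Ldhb ran from 12.34 to 13.04 in EOM fibre and 9.72 to 11.72 in TA fibre, and from 11.84 to 12.59 and 8.68 to 9.76 at the junctions. Neither gene overlapped between the muscles in either kind of region, and the widest spread was that of Ldhb in TA fibre. Within TA, Ldhb was also lower in junction regions (-1.80 ± 0.31, adjusted p = 0.00175), and the value within EOM was -0.50 ± 0.31 (adjusted p = 0.342).

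Pygb, the brain form of phosphorylase, was higher in EOM fibre than in TA fibre (1.22 ± 0.28, adjusted p = 0.0101), with -0.11 ± 0.28 at the junction (adjusted p = 0.838). Pygl, the liver form, gave 0.40 ± 0.25 and 0.14 ± 0.25 (adjusted p = 0.312 and 0.762), and Eno2, the neuronal enolase, 0.39 ± 0.30 and 0.58 ± 0.30 (adjusted p = 0.423 and 0.207). Pgm2, another member of the phosphoglucomutase family, gave -0.23 ± 0.27 and 0.34 ± 0.27 (adjusted p = 0.614 and 0.434). Gpd2, the mitochondrial partner of Gpd1, was lower in EOM between the junctions (-1.26 ± 0.22, adjusted p = 0.00141) and, within TA, higher in junction regions (0.92 ± 0.22, adjusted p = 0.015). Gys2, Fbp1 and Phka2 lay below the filter on low values.

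The ratio of partner to muscle form within each array was computed on the deposited values, as log2(intensity + 16), after the data had been seen. Scaling a whole array leaves such a ratio nearly as it is, apart from the 16 added to dim values, but quantile normalization changes it. From TA to EOM fibre the log2 ratio of Eno1 to Eno3 rose in 4 of 4 rats, by 2.77 ± 0.64 (mean and SD over rats), that of Pgam1 to Pgam2 by 2.37 ± 0.56, that of Ldhb to Ldha by 2.45 ± 1.38 and that of Pygb to Pygm by 1.96 ± 0.90. Between the junctions the changes were 2.30 ± 0.37, 2.50 ± 0.45 and 3.85 ± 0.52 in 4 of 4 rats for the first 3 pairs and 0.98 ± 0.96 in 3 of 4 rats for Pygb to Pygm. On the quantile-normalized levels the 4 changes were 2.41, 2.16, 2.20 and 1.57 in fibre and 1.97, 2.49, 3.86 and 0.74 at the junction. Also computed on deposited values, the ratio of Gpd2 to Gpd1 changed by 0.36 ± 0.89 in fibre, upward in 3 of 4 rats, and by 0.87 ± 0.30 at the junction in 4 of 4. That of Gbe1 to Pygm rose by 1.44 ± 0.27 in fibre and 2.81 ± 0.69 at the junction, in 4 of 4 rats each time. Where 4 of 4 rats moved one way the exact two-sided sign-flip p was 0.125, the smallest that 4 rats can give. Such a ratio shows unequal change of a pair of genes and does not say which one moved.

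**Figure D3:**
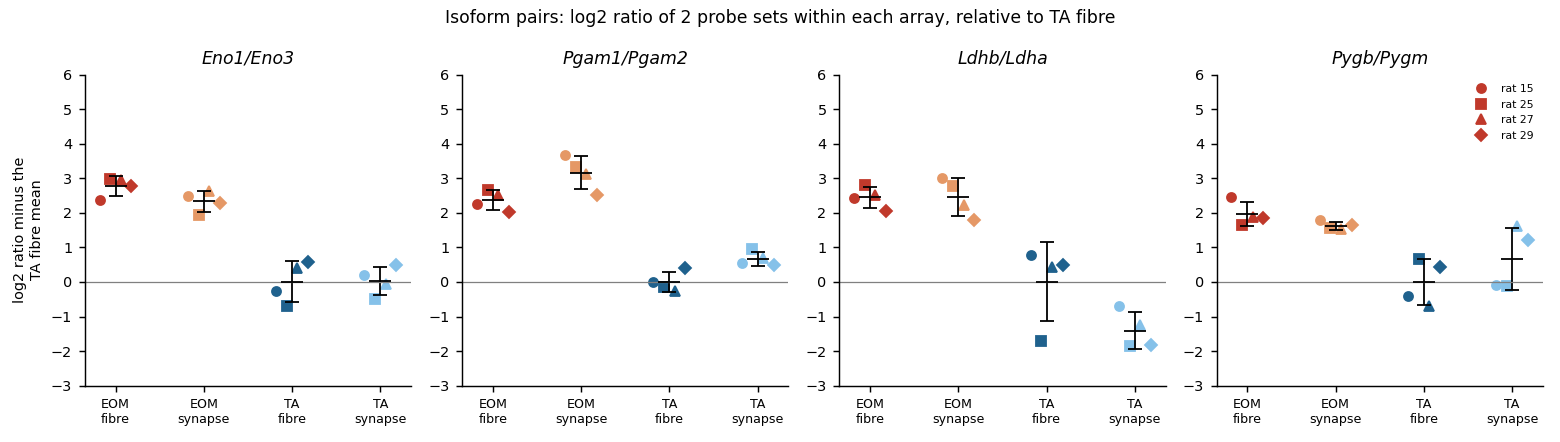
Log2 ratio of partner to muscle-form probe set within each array, from deposited values, shown as the difference from the TA fibre mean, by group, with the symbol giving the rat and bars the mean and SD (n = 4). For Eno1/Eno3, Pgam1/Pgam2 and Ldhb/Ldha every EOM array lies above every TA array of the same kind of region, whereas Pygb/Pygm overlaps at the junction.

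Beyond the members, 52 genes of the same pathways were listed, of which 39 were tested, 6 lay below the filter and 7 had no probe set for that gene alone outside the control probe sets. Between EOM and TA fibre 6 of the 39 were called higher and 5 lower, against 8.4% and 7.15% of all genes. Between the junctions 6 were called higher and 6 lower, against 7.82% and 8.61%. From fibre to junction 6 were called lower and 0 higher in EOM (0 higher at an unadjusted p under 0.05 by limma as well), and 5 lower and 1 higher in TA. Of all 10416 genes, 4.51% were called lower and 585 genes higher in EOM, and 3.53% lower and 698 genes higher in TA. The difference between these steps was called for 0 of the 39 by limma, against 0.922% of all genes, with 4 at an unadjusted p under 0.05, 2 in each direction. The medians over the 39 genes were -0.05, -0.18, -0.35 and -0.24 in the 4 comparisons of 2 groups.

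In glycogen synthesis, Gyg1, which encodes glycogenin, the protein that primes a new glycogen particle, was lower in EOM by -0.78 ± 0.19 in fibre (adjusted p = 0.0127) and by -1.28 ± 0.19 at the junction (adjusted p = 0.00043). In glycogen breakdown, Phkb, the beta subunit of phosphorylase kinase, was lower at the EOM junction than in EOM fibre by -0.75 ± 0.19 (adjusted p = 0.021), the same direction as Phka1. Of 33 alternatives 11 ended that call and 1, the pan-fibre scale, reversed the sign. Among the genes for glucose entry and upper glycolysis, Hk1, the hexokinase that first phosphorylates glucose in many tissues, was higher in EOM. The differences were 1.69 ± 0.33 in fibre and 1.19 ± 0.33 at the junction (adjusted p = 0.00378 and 0.0254). The junction call was lost in 9 of 33 alternatives, with an adjusted p up to 0.109 when an array or a rat was left out. Hk1 was dim in TA fibre, at 4.51 to 6.45, where a level of 5.69 stands at percentile 45 of an array. In EOM fibre it ran from 7.03 to 7.88. Hk2, another hexokinase listed, lay below the filter on low values.

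Pgm2l1, which encodes an enzyme that makes glucose bisphosphate, the cofactor of phosphoglucomutase, was lower in EOM by -2.17 ± 0.18 in fibre (adjusted p = 9.16e-06) and by -2.19 ± 0.18 at the junction (adjusted p = 4.21e-06). Pfkfb1, which sets the level of an activator of phosphofructokinase, was lower in EOM by -2.11 ± 0.23 and -1.93 ± 0.23 (adjusted p = 4.79e-05 and 7.37e-05). Bpgm, which makes bisphosphoglycerate, the cofactor of the mutase step, was lower by -1.30 ± 0.20 and -1.80 ± 0.20 (adjusted p = 0.000651 and 4.11e-05). These 3 genes were called lower in EOM in both kinds of region under all 4 array scalings tried.

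At the junctions, Slc16a3, a monocarboxylate transporter that exports lactate, was lower than in fibre by -1.80 ± 0.27 in EOM (adjusted p = 0.000783) and -1.54 ± 0.27 in TA (adjusted p = 0.00199). Ldhd, a mitochondrial dehydrogenase of D-lactate, was lower by -0.90 ± 0.22 in EOM and -1.51 ± 0.22 in TA (adjusted p = 0.0175 and 0.000425). Pfkfb1 was lower at both junctions as well, with a 95% interval of -1.49 to -0.51 in EOM and a difference of -1.18 ± 0.23 in TA (adjusted p = 0.0128 and 0.0041). Within EOM the call of Ldhd was lost in 9 of 33 alternatives and reversed in 1, and that of Pfkfb1 was lost in 6 of 33.

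For comparison, of 14 measured genes of the citrate cycle and oxidative phosphorylation, 3 were called higher in EOM at the junction and 0 in fibre (2 higher at an unadjusted p under 0.05 by limma), with medians of 0.29 and 0.05. Of 11 measured genes of fatty acid use, 2 were called higher at the junction and 0 in fibre (2 higher unadjusted), with medians of 0.37 and 0.20. At the TA junction 4 of the 14 and 5 of the 11 were called lower than in TA fibre, and at the EOM junction 1 and 4 lower than in EOM fibre. Over all genes 7.82% were called higher in EOM at the junction and 8.4% in fibre. The shares called lower at the junction than in fibre were 3.53% in TA and 4.51% in EOM. The medians of the 10 members stood below both lists in the muscle comparisons, which describes these lists and was not tested.

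The counts depended on how the arrays were put on one scale. The values as deposited have equal trimmed means, but their medians ran from 33.4 to 57.0. Against quantile normalization, deposited values called the same number of members in 3 comparisons of 2 groups, although within EOM Gys1 was lost (-0.74, adjusted p = 0.0606) and Ldha gained (-0.79, adjusted p = 0.0409). They called 4 instead of 2 lower at the TA junction (4.58% of all genes), with Phka1 (-0.82, adjusted p = 0.0148) and Pgam2 (-0.93, adjusted p = 0.0114) added. Centring on a common median gave 7 lower in fibre (6.57% of all genes), where Eno3 (-0.72, adjusted p = 0.0397) and Ldha (-0.83, adjusted p = 0.0297) passed and Gbe1 did not.

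The fourth scaling centred each array on 8 genes of the contractile apparatus of all fibres (Acta1, Ttn, Neb, Des, Ldb3, Tcap, Cacna1s and Ryr1), so a value there is per unit of fibre RNA as these genes measure it. It moved the median of all genes to 0.64 between the fibre groups, 0.94 between the junctions, 0.84 within EOM and 0.54 within TA. After quantile normalization 5 of these 8 genes were called lower in EOM between the junctions, against 8.61% of all genes. Between the fibre groups 2 of 8 were, against 7.15%. From fibre to junction 2 of 8 were called lower in EOM, against 4.51%, with 8 of 8 negative and a median of -0.53. In TA 0 of 8 were called (1 lower at an unadjusted p under 0.05 by limma), with a median of -0.10. On this scale 2 of 10 members were called higher between the fibre groups, where 41.2% of all genes were, and 2 lower, where 2.15% were. Between the junctions 3 were higher, against 67% of all genes, and 4 lower, against 1.48%. Within EOM 1 was higher, against 61.7%, and 1 lower, against 0.288%, and within TA 2 were lower, against 0.576%. The members called higher were thus fewer than the share of all genes in each of these 3 comparisons.

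On the pan-fibre scale Gbe1 was 1.35 higher in EOM fibre (adjusted p = 0.00132) and 2.71 higher at the EOM junction (adjusted p = 3.46e-06). Gys1, which overlapped between the muscles after quantile normalization, was higher by 0.83 and 0.96 (adjusted p = 0.0203 and 0.00529), and Eno3 was higher at the EOM junction by 0.54 (adjusted p = 0.0408). Phka1 was lower by -0.91 and -0.93 (adjusted p = 0.0137 and 0.00681) and Fbp2 by -0.84 and -0.78 (adjusted p = 0.0202 and 0.0174). At the junction Pgm1 (-0.75, adjusted p = 0.00589) and Gpd1 (-1.26, adjusted p = 0.000406) also remained lower. Pygm, Pgam2 and Ldha, lower at the EOM junction after quantile normalization, gave -0.10, -0.27 and -0.03 (adjusted p = 0.728, 0.277 and 0.902).

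Within EOM the pan-fibre scale left Fbp2 lower at the junction (-0.89, adjusted p = 0.0107) and made Eno3 higher (0.77, adjusted p = 0.008). Phka1, Pgm1, Pgam2 and Gpd1 gave -0.33, -0.42, -0.23 and -0.34 there, with adjusted p from 0.0843 to 0.353, and Gys1 turned to 0.15 (adjusted p = 0.625). Gbe1 and Fbp2 stayed lower at the TA junction (-0.80 and -0.94, adjusted p = 0.033 and 0.0164).

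**Figure D4:**
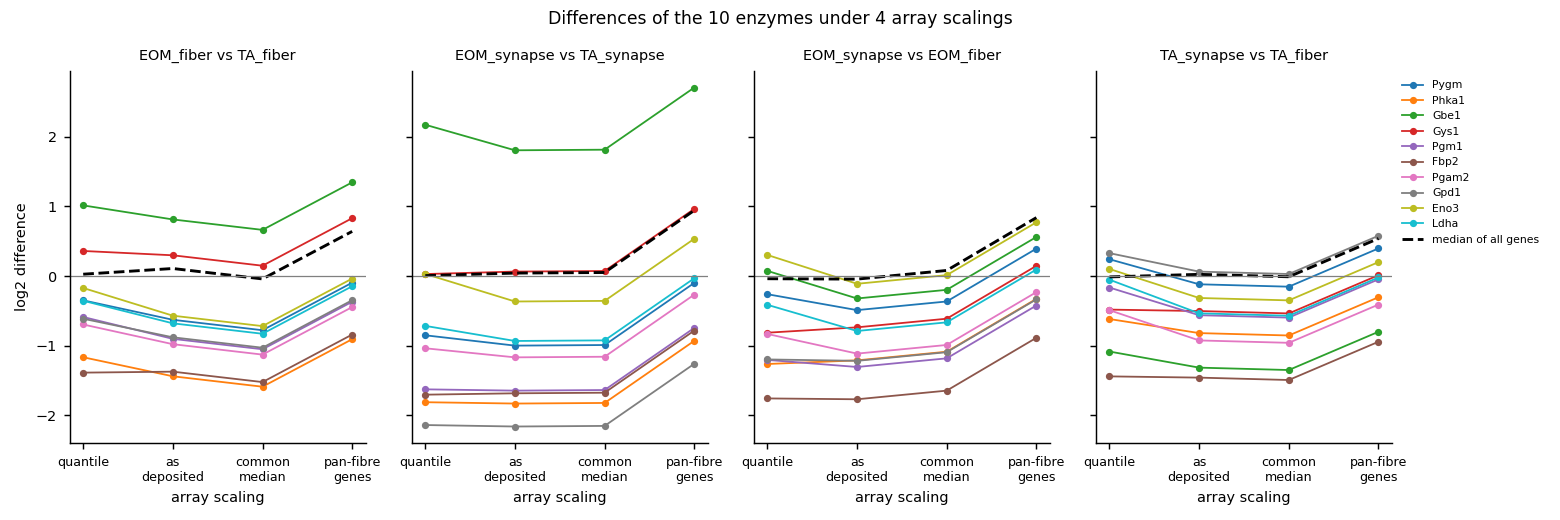
Log2 difference of the 10 enzymes under 4 array scalings in the 4 comparisons of 2 groups, with the dashed line for the median of all genes. The values move up with the all-gene median on the pan-fibre scale, where that median is 0.94 between the junctions, and Gbe1 stays above 0 in both muscle comparisons under all 4 scalings.

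Markers of other cells differed in some of these comparisons. The mean level of 7 fibroblast markers ran from 9.31 to 11.31 on the EOM fibre arrays and 7.77 to 9.36 on the TA fibre arrays. In EOM fibre 7 of 7 were called higher, against 8.4% of all genes. The mean of 7 measured Schwann cell markers of 10 listed was 6.93 in EOM fibre and 9.15 at the EOM junction. It was 5.79 in TA fibre and 8.07 at the TA junction. At each junction 6 of 7 were called higher than in fibre, where 585 (EOM) and 698 (TA) of all 10416 genes were. The mean of 5 endothelial markers was 8.92 in EOM fibre and 8.12 in TA fibre, and that of 6 macrophage markers 7.22 and 6.02. Between the junctions 2 of 7 fibroblast and 3 of 7 Schwann cell markers were called higher in EOM. Of the endothelial markers 1 of 5 was, and of the macrophage markers 0 of 6, against 7.82% of all genes. Of the 8 neuronal markers only Nefm and Gap43 passed the filter. The share of these cells in the member differences was not tested.

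The labels of the regions were checked against postsynaptic genes, and 6 of 6 were called higher at the junction than in fibre in each muscle. Of all 10416 genes 585 were in EOM and 698 in TA. Between the fibre groups 4 of 6 (Chrna1, Chrnb1, Chrnd and Colq) were called higher in EOM, against 8.4% of all genes, with a median of 1.25. The mean level of the 6 was 7.24 in EOM fibre, 5.71 in TA fibre, 10.60 at the EOM junction and 10.03 at the TA junction. The part of this in the member values was not tested. Fibre-type genes were counted too. Of 12 fast-fibre genes 2 were called lower and 1 higher in EOM fibre than in TA fibre, with a median of 0.01. Over all genes 7.15% were lower and 8.4% higher there. Between the junctions 4 of the 12 were lower in EOM and 0 higher, against 8.61% and 7.82%. From fibre to junction 5 were lower in EOM and 1 in TA, against 4.51% and 3.53%. Of 9 slow-fibre genes 4 were higher and 1 lower in EOM fibre, and 2 higher and 1 lower in EOM between the junctions. At the EOM junction 7, and at the TA junction 5, were lower than in the fibre of the same muscle. The all-gene shares are those given for the fast-fibre genes. The part of fibre type in the member values was not tested.

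The members also varied together over the 16 arrays, which share the group differences already described. Pearson's r of normalized levels was 0.94 between Pgm1 and Gpd1, 0.92 between Phka1 and Pgm1, and 0.90 between Pgm1 and Ldha, whereas Gbe1 and Gpd1 had -0.78 and Eno3 stayed between -0.29 and 0.39 with every other member. The genes with the pattern most like Gpd1 among all tested were Mybpc2 (0.98), Myoz1 (0.97) and Car3 (0.96), and those most like Pgm1 were Car3, Mybpc2 and Myoz1 (0.96, 0.96 and 0.95). For Gbe1 they were Ddit4l (0.94), Mpp7 (0.93) and Acss1 (0.93), and for Phka1 Grhpr (0.95), Fam78a (0.94) and Msrb3 (0.94). These correlations describe 16 arrays in 4 groups, and arrays of a group are not independent points along a gradient.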

How the data were processed

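Affymetrix arrays of amplified RNA from 16 laser captures were used. The values deposited by the authors are intensities on a linear scale, 1 per probe set, with summarising software not given in the sources used here. Trimmed means of the arrays, with 2% left out at each end, ran from 150.06 to 150.08, while their medians ran from 33.4 to 57.0. Per the labels' protocols, equal amounts of amplified RNA entered the second of the amplification cycles.

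The deposited intensities were taken as log2(intensity + 16) and quantile-normalized over all probe sets but 57 controls. The array annotation gave 1 gene for 20832 probe sets, several for 436 and none for 9780 (not listed). A probe set had to exceed its array's median in 4 arrays or more, and the brightest on average stood for its gene, which left 10416 genes. limma 3.58.1 in R 4.3.3 fitted a mean for each of the 4 groups plus an effect of each rat, the block (residual df 9, prior df 4.58), with Benjamini-Hochberg adjustment over all genes and a threshold of 0.05, for 4 comparisons of 2 groups and for the difference between the junction differences.

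The block rests on reading the title numbers as animals. Deviations from the group means correlated at a mean r of 0.112 over 24 pairs of arrays with the same number (across genes, -0.07 to 0.25; 16 pairs over 0.1), against -0.04 over 72 pairs of other numbers. The fit was tested on simulated data of 10416 genes, with independent normal noise and no rat effect. Far fewer genes were changed there than were called here in the comparisons of 2 groups. The adjustment depends on that share, so the recovered shares below hold for the simulated setting and not for these data. Genes changed by 1 on the log2 scale were recovered in 30% between the fibre groups, 34% between the junctions, 52% within EOM, 26% within TA and 6% for the difference of differences, and genes changed by 2 in 86%, 82%, 98%, 86% and 60%. The number of arrays limits the precision.

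The 10 members and all gene lists were chosen with earlier results of these data known. All members and most of the listed pathway genes that were called or share an activity with a member are described above. Aldoc was also called higher in EOM, by 1.54 in fibre and 1.30 between the junctions (limma, adjusted p = 0.0192 and 0.042). It was dim, at 4.20 to 5.53 in TA fibre and 5.02 to 6.10 at the TA junction. In EOM it ran from 4.88 to 6.84 in fibre and 6.63 to 7.08 at the junction. A level of 5.69 stands at percentile 45 of an array, so no TA fibre array counted towards Aldoc passing the filter. Slc2a4 was called higher in EOM between the junctions (0.84, adjusted p = 0.0431). Stbd1 was called lower in EOM between the junctions (-0.77) and at the junction within EOM (-0.80). Slc16a1 was called lower in EOM fibre (-0.82) and at the junction within TA (-0.97). Each of these calls was lost in 4 to 22 of 33 alternatives. The alternatives were 3 other scalings, pseudocounts of 1 and 64, no filter and a stricter one, no block and a random block, only the arrays compared, the mean over probe sets, an intensity trend, and leaving out arrays or rats. The within-array ratios, on deposited values and on quantile-normalized levels, were added after the data were seen. Promoters are those of RefSeq on GRCr8.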

Additional observations from a re-analysis of the deposited data

Results flagged for a closer look

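In each of 40 groups of 4 arrays (10 members in 4 groups), the highest or lowest array was set against its nearest neighbour, a test that chance meets in about 1 in 20 groups, and 3 groups met it. Pygm in rat 27 at the TA junction was 11.75, against 13.23 in the next lowest array. Gys1 in rat 15 at the EOM junction was 9.35, against 8.87 in the next highest. Pgam2 in rat 15 in EOM fibre was 13.00, against 12.71 in the next highest. The EOM fibre array of rat 15 and the TA junction array of rat 27 are also those with the highest medians as deposited, 57.0 and 53.2, and the part of this in the values was not tested.

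The step from fibre to junction differed between the muscles for Gpd1, by -1.53 on the log2 scale (limma, adjusted p = 0.0185).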

How the results depend on the processing

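Over the 32 or 33 alternatives of each member comparison, 1463 of 1640 values kept their direction and their side of the threshold, 122 lost a call, 19 gained one, 1 reversed and 35 changed sign with no call on either side. Gbe1, Phka1 and Fbp2 lost no call in the muscle comparisons except Gbe1 in fibre on the common median. Where no cause is visible in how an alternative is built, the cause was not tested.

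The count of 6 members called between the fibre groups was 3 with no filter, 3 with no replicate block, 3 with only the arrays compared and 3 without the 3 arrays of highest median, and 3 to 6 with arrays or rats left out. The 8 called between the junctions ranged from 6 to 8 with arrays or rats left out. The 6 within EOM were 2 on the pan-fibre scale and ranged from 4 to 6, and the 2 within TA were 4 as deposited and ranged from 2 to 3. The 1 call for the difference of differences was 0 on the common median, on the pan-fibre scale, with the mean over probe sets and without the 3 arrays of highest median, 3 with a pseudocount of 64 or an intensity trend, and ranged from 0 to 1.

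Reversed values all arose on the pan-fibre scale. Within EOM they were Gys1 0.15, Phkb 0.097, Stbd1 0.12, Pgm2 0.69, Bpgm 0.26 and Ldhd 0.076, and between the junctions Pygb 0.88, Stbd1 0.12 and Slc16a1 0.76.

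Over all genes, 1620, 1712, 1055, 1066 and 96 were called in the 5 comparisons. On the pan-fibre scale the first 4 were 4511, 7133, 6454 and 3045. With only the arrays compared, 582 were called between the fibre groups and 606 within TA, and on the common median 1139 between the junctions, 689 within EOM and 56 for the difference of differences, which was 46 and 218 with pseudocounts of 1 and 64 and 204 with a trend. Without the replicate block the pairing by rat is dropped, and the counts were 1383, 1474, 831, 903 and 73. Dim values, such as Fbp2 at the EOM junction, are limited by signal over background.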
